A study of Mus musculus with 12 samples.

Results

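Dendritic cells (DCs) take up antigen and present it to T cells, and 10 genes that mark these cells or their subsets were described in mouse oral tumors, across all 12 libraries of 4 treatment groups. The genes were chosen by symbol from the table of 55401 genes, and each symbol matched a single row, so all 10 were found. Xcr1, Clec9a, Batf3 and Irf8 belong to the cross-presenting conventional DCs (cDC1). Flt3 and Zbtb46 mark the conventional DC lineage, Itgae is an integrin of some tissue DCs and T cells, Ccr7 and Fscn1 mark DCs that migrate to lymph nodes, and Cd209a marks monocyte-derived DCs.

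By the labels, tumors were grown from MTC-Q1 cells, a mouse oral cancer line, injected orthotopically into C57BL/6 mice, and treatment began at a tumor size of 100 mm3. Each group held 3 libraries of bulk tumor RNA: control isotype IgG (Ctrl-IgG), an antibody against the macrophage growth factor receptor CSF1R (aCSF1R), recombinant interleukin-10 carrying an Fc domain (IL-10-Fc), and BF10, a protein that fuses the CSF1R antibody to interleukin-10. The labels give the same line and strain for all groups, which the transcripts described below go against, and the number of doses stands as 6 in one label and as 4 in another. Age and sex were not given in the labels, and nothing there says whether libraries of a group came from separate mice, so the p-values measure the spread between these libraries only, which may be technical.

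As background, cDC1 carry the chemokine receptor XCR1 and the dead-cell receptor CLEC9A, and their development needs the transcription factors IRF8 and BATF3. DC precursors grow in response to FLT3 ligand. On maturation, DCs raise CCR7, the receptor that guides them along the chemokines CCL19 and CCL21 to the lymph node, together with the actin-bundling protein fascin (Fscn1). Several of these genes are not restricted to DCs: Irf8 is also used by B cells and macrophages, Ccr7 by B and T cells, Itgae by T cells, Zbtb46 by endothelial cells, and Fscn1 by many tumor cells. In bulk tissue, fewer cells of a type and less RNA per cell cannot be told apart.

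The libraries stood apart in ways that the treatments do not name. H2-Ea, a class II gene that C57BL/6 mice do not express, was at 0.04 to 0.27 FPKM (fragments scaled by transcript length and library size) across the 6 libraries of Ctrl-IgG and aCSF1R and at 552.78 to 1726.81 FPKM across the 6 of IL-10-Fc and BF10. The epithelial keratin Krt8 was at 0.06 to 0.28 and 168.88 to 617.76 FPKM on these sides, and the female-specific Xist at 0.01 to 0.04 and 17.09 to 30.68 FPKM. The Y-linked Eif2s3y was at 4.23 to 11.33 and 0 to 3.29 FPKM, the 3.29 being BF10 replicate 3. These values go against 1 tumor line in mice of 1 strain on both sides, as labelled. In H2-Ea, the IL-10-Fc and BF10 libraries depart from the labelled C57BL/6 strain. For the tumor line, the labels do not settle which side departs. Comparisons across these sides, 4 of the 6 below, cannot be told apart from the difference between the sides. aCSF1R against Ctrl-IgG and BF10 against IL-10-Fc lie within a side. In addition, 4 libraries had the highest FPKM sums, namely replicate 2 of Ctrl-IgG, replicate 1 of BF10 and the first 2 replicates of IL-10-Fc, with 819001 to 976950 against 637596 to 701275 in the other 8, and a mitochondrial share of 6.57% to 9.04% against 2.99% to 3.61%.

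The labelled tissue was checked against its markers. The 6 keratinocyte genes summed to 607.11 to 1279.27 FPKM in 3 of the 6 Ctrl-IgG and aCSF1R libraries, to 2.20 to 4.82 FPKM in the other 3, and to 17.87 to 36.48 FPKM on the other side. The leukocyte gene Ptprc was detected in all 12 libraries, at 14.28 to 49.98 FPKM. For the DC label, the receptors that define cDC1 were near 0: Xcr1 reached at most 0.36 FPKM and Clec9a at most 1.51 FPKM.

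Irf8 lies at chr8:120736358-120756694 on the plus strand of GRCm38 and was the member whose upstream sequence held a repeated motif. Interleukin-10 signals through the factor STAT3, and the letters TTCNNNGAA, which are the same on both strands, are the core of the element that STAT factors bind. Among 9 windows of 250 bases before the RefSeq start of 8 members (GRCm38.p6, no window for Ccr7 and Itgae), 2 held a match, against 7.02% of all 32851 windows. The window before the first Irf8 start held 2 matches, beginning 171 and 153 bases upstream, and 2 or more were held by 0.317% of all windows. It is shown as the one member window with more than 1 match, with both matches in capitals, at chr8:120736108-120736357 on the plus strand.

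Irf8: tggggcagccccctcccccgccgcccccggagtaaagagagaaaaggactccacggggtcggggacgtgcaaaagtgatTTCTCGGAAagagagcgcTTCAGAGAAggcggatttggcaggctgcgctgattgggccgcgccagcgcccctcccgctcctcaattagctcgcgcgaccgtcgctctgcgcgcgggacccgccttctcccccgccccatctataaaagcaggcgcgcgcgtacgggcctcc

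The window of Batf3 held 1 match, TTCCACGAA, 239 bases upstream of its start on the plus strand of chromosome 1. The windows of Xcr1, Clec9a, Flt3, Zbtb46, Fscn1, Cd209a and the second Irf8 start held no match of these letters. The windows of Zbtb46, Batf3 and the second Irf8 start lie inside the GENCODE span of their gene, so they do not cover the sequence before its outermost start. For Zbtb46 the window is at chr2:181424389-181424638, within a gene of the minus strand that spans 181387762 to 181459426. A match is a description of the letters and not a bound site.

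FPKM is scaled by transcript length, so levels can be compared between genes. Fscn1 was the most abundant member, with a mean of 144 FPKM over the 12 libraries, followed by Irf8 with 22.0 FPKM. Batf3, Zbtb46 and Ccr7 had means of 3.65, 2.76 and 2.24 FPKM. The means of Cd209a, Clec9a, Itgae, Flt3 and Xcr1 were 0.799, 0.568, 0.498, 0.411 and 0.150 FPKM. Only Batf3, Irf8, Zbtb46, Ccr7 and Fscn1 passed the filter of at least 1 FPKM in at least 3 libraries, and the other 5 members are described by their values.

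**Figure D1:**
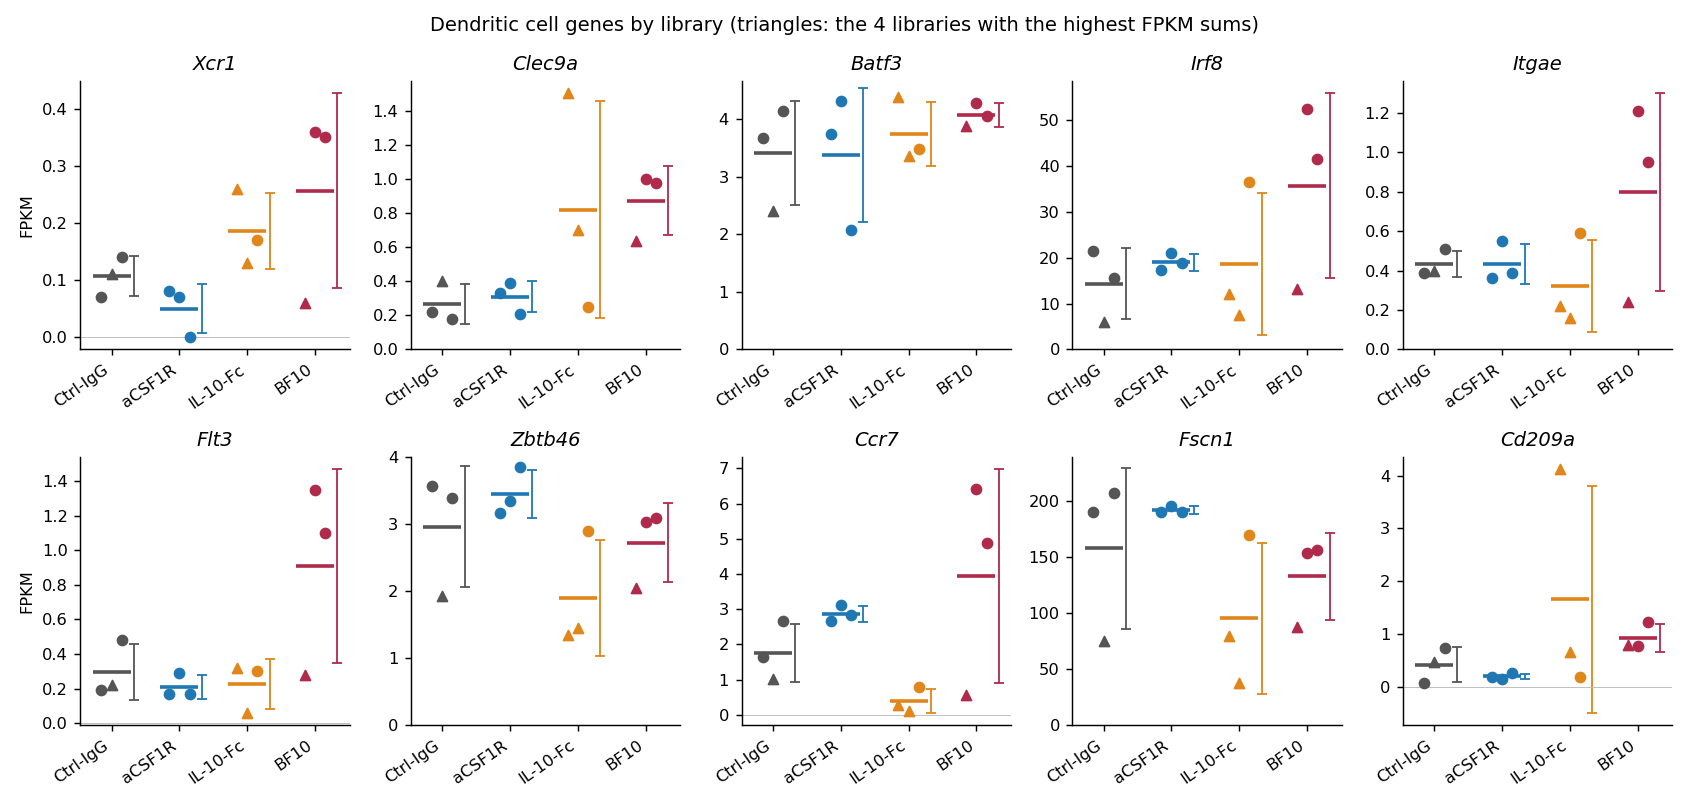
FPKM of the 10 dendritic cell genes in each library (y axis, 1 panel per gene, linear) by treatment group (x axis). Points are libraries, triangles the 4 libraries with the highest FPKM sums, horizontal lines group means and error bars SD (n = 3). Irf8, Ccr7, Flt3 and Itgae were highest in 2 of the 3 BF10 libraries, whereas BF10 replicate 1 lay within the range of the IL-10-Fc libraries.

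Among the cross-presenting genes, the receptors were low and the transcription factors were readily detected. Xcr1, the receptor of the T and NK cell chemokine XCL1, was at 0.07, 0.11 and 0.14 FPKM in Ctrl-IgG and at 0.08, 0.07 and 0 FPKM in aCSF1R. It was at 0.26, 0.13 and 0.17 FPKM in IL-10-Fc and at 0.06, 0.36 and 0.35 FPKM in BF10. The IL-10-Fc libraries lay above all aCSF1R libraries, and the BF10 libraries spanned nearly the whole range. No fold was given for Xcr1 because aCSF1R replicate 3 was listed at 0 and the depth behind single values is unknown.

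Clec9a, which recognizes actin filaments of dead cells, was at 0.22, 0.40 and 0.18 FPKM in Ctrl-IgG and at 0.33, 0.39 and 0.21 FPKM in aCSF1R. It was at 1.51, 0.70 and 0.25 FPKM in IL-10-Fc and at 0.64, 1.00 and 0.98 FPKM in BF10. All 3 BF10 libraries lay above every Ctrl-IgG and aCSF1R library, while IL-10-Fc overlapped both. Group means were 0.873 ± 0.202 FPKM in BF10 and 0.267 ± 0.117 FPKM in Ctrl-IgG (SD, n = 3). Reads of Clec9a are uncertain where they fall in Clec1b or Gm43914, annotated genes of the same strand that overlap it.

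Batf3 differed least between groups. It was at 3.67, 2.40 and 4.15 FPKM in Ctrl-IgG, at 3.74, 4.32 and 2.08 FPKM in aCSF1R, at 4.38, 3.36 and 3.49 FPKM in IL-10-Fc and at 3.88, 4.29 and 4.05 FPKM in BF10. All groups overlapped, and its log2 differences ran from -0.02 (standard error 0.26, aCSF1R against Ctrl-IgG) to 0.25 (0.26, BF10 against aCSF1R).

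Irf8 varied widely within IL-10-Fc and BF10 and little within aCSF1R. It was at 21.54, 6.01 and 15.55 FPKM in Ctrl-IgG and at 17.24, 20.95 and 18.91 FPKM in aCSF1R. It was at 12.14, 7.60 and 36.45 FPKM in IL-10-Fc and at 13.28, 52.39 and 41.58 FPKM in BF10. The highest values were those of BF10 replicates 2 and 3 and IL-10-Fc replicate 3, and the 4 lowest were those of the 4 libraries with the highest FPKM sums, at 6.01 to 13.28 FPKM against 15.55 to 52.39 FPKM in the other 8. BF10 against Ctrl-IgG gave a log2 difference of 1.21 with a standard error of 0.63 (limma adjusted p = 0.196), which was not called. Reads of Irf8 are uncertain where they fall in Gm20388, an annotated gene of the same strand that spans the locus.

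Of the lineage genes, Flt3, the receptor tyrosine kinase for FLT3 ligand, was low except in 2 libraries. It was at 0.19, 0.22 and 0.48 FPKM in Ctrl-IgG, at 0.17, 0.29 and 0.17 FPKM in aCSF1R, at 0.32, 0.06 and 0.30 FPKM in IL-10-Fc and at 0.28, 1.35 and 1.10 FPKM in BF10. BF10 replicates 2 and 3 lay above the other 10 libraries, and BF10 replicate 1 lay among them. Its ligand Flt3l was at 27.38, 7.19 and 18.84 FPKM in Ctrl-IgG and at 24.38, 33.05 and 14.44 FPKM in aCSF1R. It was at 3.63, 3.23 and 10.91 FPKM in IL-10-Fc and at 5.96, 20.17 and 19.99 FPKM in BF10. Flt3l fell in IL-10-Fc against aCSF1R, with a log2 difference of -1.95 and a standard error of 0.60 (limma adjusted p = 0.0248). The groups did not overlap. This comparison crosses the sides, and 42.2% of all tested genes were called in it and 56.1% did not overlap. The 4 lowest Flt3l values, 3.23 to 7.19 FPKM, were those of the 4 libraries with the highest FPKM sums.

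Zbtb46, a repressor of other myeloid programs in conventional DCs, was at 3.57, 1.92 and 3.39 FPKM in Ctrl-IgG and at 3.16, 3.35 and 3.85 FPKM in aCSF1R. It was at 1.34, 1.45 and 2.90 FPKM in IL-10-Fc and at 2.04, 3.03 and 3.09 FPKM in BF10. Every aCSF1R library lay above every IL-10-Fc and BF10 library. The 4 libraries with the highest FPKM sums held the lowest values, 1.34 to 2.04 FPKM against 2.90 to 3.85 FPKM, and the 4 endothelial genes summed to 13.57 to 24.98 FPKM there, against 21.71 to 59.05 FPKM in the other 8. The part of endothelial cells in the Zbtb46 values was not tested.

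The integrin gene Itgae, whose product CD103 pairs with integrin beta 7 (Itgb7) and binds E-cadherin (Cdh1), ranged from 0.36 to 0.55 FPKM over all Ctrl-IgG and aCSF1R libraries. It was at 0.22, 0.16 and 0.59 FPKM in IL-10-Fc and at 0.24, 1.21 and 0.95 FPKM in BF10, so that BF10 replicates 2 and 3 were again the highest. Its partners followed in part. Itgb7 was at 9.87, 29.30 and 26.11 FPKM in BF10 and at 5.12, 4.80 and 9.47 FPKM in Ctrl-IgG, and rose by 1.53 on the log2 scale (standard error 0.47, limma adjusted p = 0.0342). Cdh1 was at 6.67, 33.31 and 27.19 FPKM in BF10 and at 0.92, 0.37 and 5.08 FPKM in Ctrl-IgG, and rose by 2.95 (0.86, limma adjusted p = 0.0280). The highest Cdh1 value was not in BF10 but in IL-10-Fc replicate 3, at 40.09 FPKM. Both rises are those of BF10 against Ctrl-IgG, where 24.9% of all genes were called. That comparison crosses the 2 sides that differ in H2-Ea and keratins, and E-cadherin is also made by epithelial cells.

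Ccr7 was the one member called in any comparison. It was at 1.63, 1.02 and 2.65 FPKM in Ctrl-IgG and at 2.66, 3.11 and 2.82 FPKM in aCSF1R. It was at 0.29, 0.12 and 0.78 FPKM in IL-10-Fc and at 0.56, 6.41 and 4.88 FPKM in BF10. IL-10-Fc lay below all Ctrl-IgG and aCSF1R libraries, and aCSF1R lay above all Ctrl-IgG libraries by a margin of 0.01 FPKM between 2.66 and 2.65. BF10 did not separate from any group, since its replicate 1 lay within IL-10-Fc and its other libraries above all others.

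Fscn1 was far more abundant than Ccr7, and like it was lowest in replicate 1 among the BF10 libraries. It was at 190.05, 75.29 and 206.89 FPKM in Ctrl-IgG and at 190.07, 195.59 and 189.40 FPKM in aCSF1R. It was at 79.45, 37.24 and 169.12 FPKM in IL-10-Fc and at 87.78, 153.69 and 155.73 FPKM in BF10. The aCSF1R libraries lay above all IL-10-Fc and BF10 libraries, and the 4 libraries with the highest FPKM sums, at 37.24 to 87.78 FPKM, lay below the other 8. Fscn1 exceeded Ccr7 by 24.0-fold in BF10 replicate 2 and by 310-fold in IL-10-Fc replicate 2. Fscn1 thus exceeded the leukocyte gene Ptprc in all libraries but IL-10-Fc replicate 2, where they were at 37.24 and 38.76 FPKM.

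Cd209a, a lectin of monocyte-derived DCs, was at 0.06, 0.46 and 0.73 FPKM in Ctrl-IgG and at 0.19, 0.15 and 0.25 FPKM in aCSF1R. It was at 4.13, 0.66 and 0.18 FPKM in IL-10-Fc and at 0.78, 0.77 and 1.23 FPKM in BF10. The BF10 libraries lay above all Ctrl-IgG and aCSF1R libraries, and the IL-10-Fc mean of 1.66 ± 2.16 FPKM (SD, n = 3) rested on replicate 1. The gene sits in a cluster of paralogs on chromosome 8, from 3743397 in Cd209a to 4137707 in Cd209g (GRCm38), whose reads may be shared, so single family values are uncertain. In IL-10-Fc replicate 1, Cd209d, Cd209e, Cd209g, Cd209c and Cd209b were also at their highest, at 3.88, 1.85, 1.85, 1.55 and 1.08 FPKM. Cd209f was highest in Ctrl-IgG replicate 3, at 1.32 FPKM, beside 1.98 FPKM of Cd209d.

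**Figure D2:**
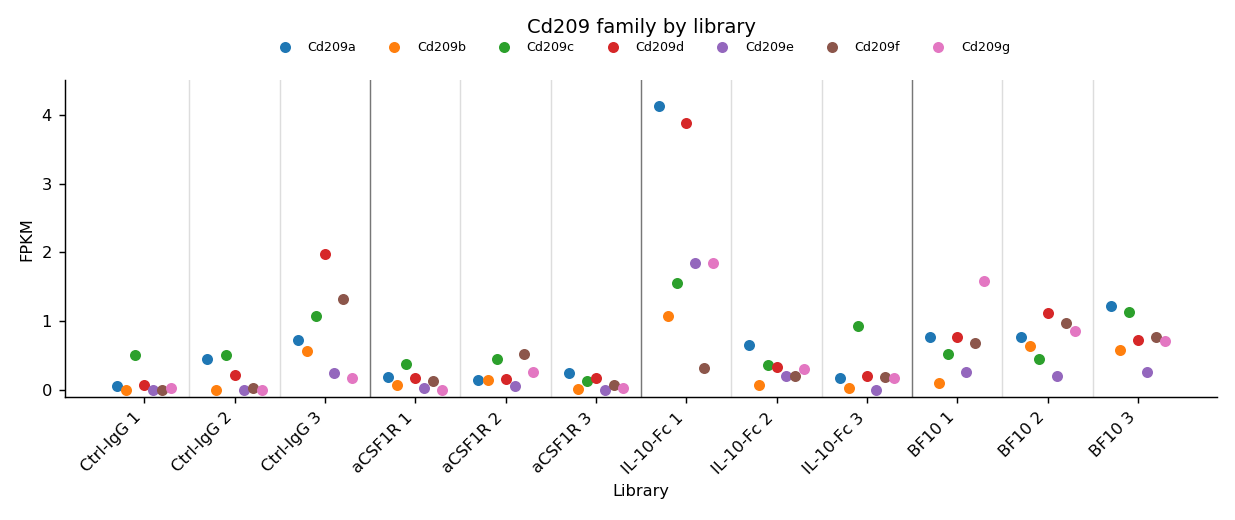
FPKM of the 7 Cd209 family genes (y axis, linear) in each library (x axis), 1 color per gene. IL-10-Fc replicate 1 held the highest value of 6 of the 7 genes, with Cd209a at 4.13 FPKM and Cd209d at 3.88 FPKM.

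Comparisons that share a group share its libraries and are not independent. They were tested across all 15813 genes that passed the filter, with limma on log2(FPKM + 1), and calls required both an adjusted p below 0.05 and a fold of 1.5 or more. A log2 difference on this scale understates the change of low genes. The median of all tested genes was itself shifted, by 0.34 in BF10 against IL-10-Fc, 0.11 in aCSF1R against Ctrl-IgG, -0.12 in BF10 against Ctrl-IgG, -0.39 in IL-10-Fc against Ctrl-IgG, -0.21 in BF10 against aCSF1R and -0.51 in IL-10-Fc against aCSF1R. The medians of the 5 members tested were 0.68, 0.41, 0.22, -0.46, 0.08 and -0.66 in the same order. With median-of-ratios scaling the median of all genes lay between -0.0755 and 0.0345 in the 6 comparisons.

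The comparison of aCSF1R with Ctrl-IgG asks what blocking the receptor alone changes, and it lies within a side. Tissue content was uneven in it. The 6 skeletal muscle genes summed to 922.65 FPKM in Ctrl-IgG replicate 3 and to 592.93 and 561.62 FPKM in aCSF1R replicates 1 and 2. They summed to 30.26 to 81.16 FPKM in the other libraries of these groups. The same libraries held the high keratinocyte sums. Ctrl-IgG replicate 2 had a high FPKM sum, and no aCSF1R library did. By limma none of the 5 members was called and 0% of all genes were, and 0 members had an unadjusted p under 0.05, against 2.76% of all genes (437). Log2 differences ran from -0.02 for Batf3 to 0.54 for Irf8, with a standard error of 0.63 for the latter. Ccr7 did not overlap between the groups, 1 of 5 tested members against 14.9% of all tested genes, and the 5 members under the filter all overlapped. Its log2 difference was 0.52 with a standard error of 0.49.

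The other comparison within a side sets BF10 against IL-10-Fc, and so asks what CSF1R blockade adds to interleukin-10. BF10 replicate 3 stood apart within it, with Eif2s3y at 3.29 FPKM and a skeletal muscle sum of 89.46 FPKM. The other libraries of these groups had 0 to 0.05 FPKM and 6.64 to 11.23 FPKM. None of the 5 members was called, against 0.0126% of all genes, which were 2 genes. Ccr7 had a log2 difference of 1.57 with a standard error of 0.49 and an adjusted p of 0.478 (limma), with 1 member at an unadjusted p under 0.05 against 5.24% of all genes. Of the 5 tested members 0 were free of overlap, against 5.18% of all tested genes, as were 0 of the 5 under the filter. Without BF10 replicate 1, which has a high FPKM sum, Ccr7 was called with a difference of 2.27 and an adjusted p of 0.00750, where 0.694% of all genes were called. Over all 20 alternatives the adjusted p of Ccr7 ran from 0.00750 to 0.969. The first number in the sample titles, whose meaning the labels do not give, is 1 to 4 in BF10 replicate 1 and the first 2 libraries of each other group and 5 to 7 in the remaining 5 libraries. Within the low numbers Ccr7 was at 0.56 FPKM in BF10 and at 0.29 and 0.12 FPKM in IL-10-Fc, and within the high numbers at 6.41 and 4.88 FPKM in BF10 and at 0.78 FPKM in IL-10-Fc. With this split as a term the difference was 1.30 (limma adjusted p = 0.703). BF10 replicates 2 and 3, which carried this difference, also differed from the other 10 libraries in the 6 B cell genes, which summed to 159.46 and 89.61 FPKM against 0.72 to 8.42 FPKM, and in the 7 T cell genes, at 74.52 and 60.92 FPKM against 16.56 to 37.71 FPKM. The part of B and T cells in the Ccr7, Irf8 and Itgae values was not tested.

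The ligands of CCR7 were high in the same libraries. Ccl21a, made by lymphatic endothelium and lymph node stroma, was at 0.59, 106.62 and 101.48 FPKM in BF10 and at 25.51, 6.83 and 18.25 FPKM in IL-10-Fc. It was at 0.16, 12.77 and 8.51 FPKM in Ctrl-IgG and at 7.72, 16.68 and 10.60 FPKM in aCSF1R. Ccl19 was at 0.07, 5.34 and 4.14 FPKM in BF10 and at 0 to 1.21 FPKM in the other 9 libraries. Neither was called in BF10 against IL-10-Fc, with log2 differences of 0.71 (standard error 1.45) for Ccl21a and 1.60 (0.54) for Ccl19, at adjusted p of 0.754 and 0.478 (limma). Ccl21a has near-identical gene copies in the mouse genome, so its reads are uncertain.

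**Figure D3:**
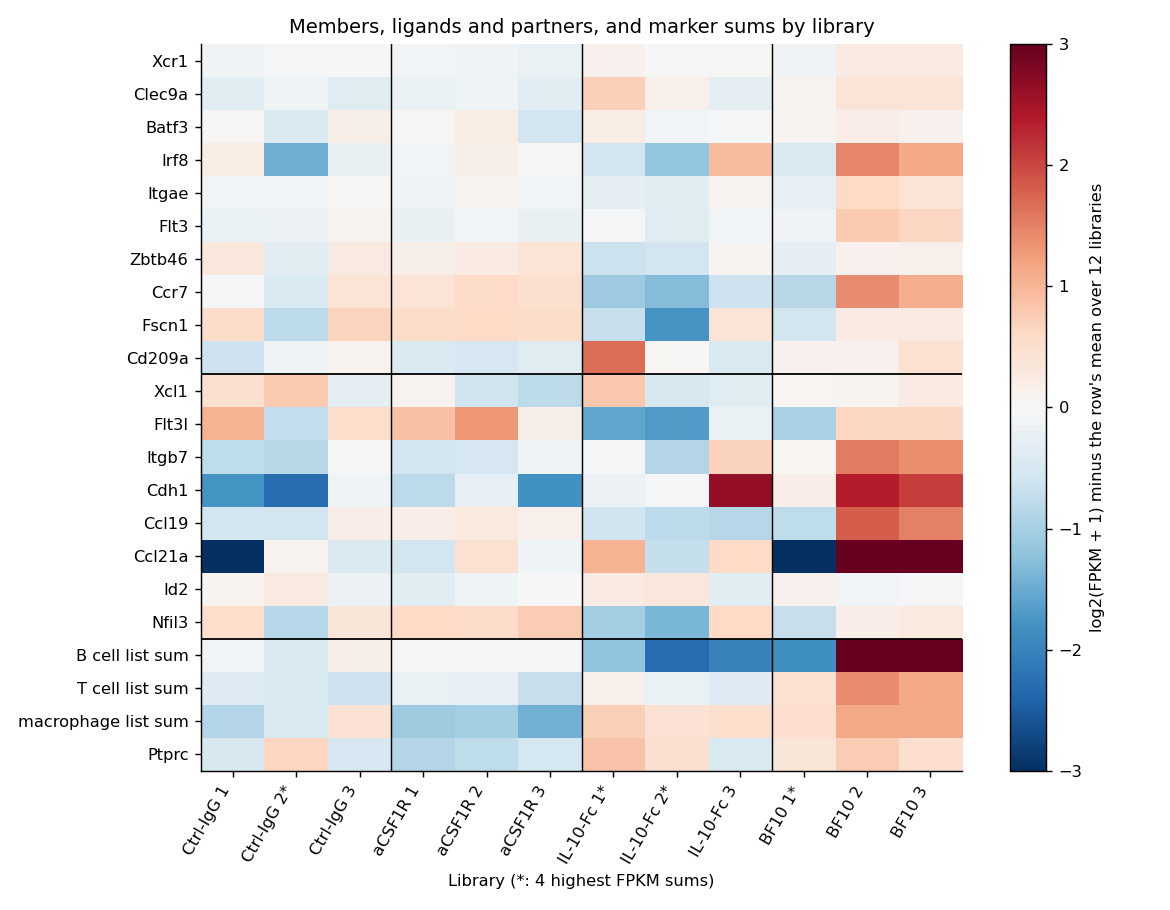
Color gives log2(FPKM + 1) minus the mean of the row over 12 libraries, for the 10 members (top), 8 ligands and partners (middle) and marker levels (bottom, log2 of the summed FPKM + 1), with colors capped at -3 and 3, libraries on the x axis and an asterisk for the 4 highest FPKM sums. BF10 replicates 2 and 3 were high in Irf8, Flt3, Itgae, Ccr7, Ccl19, Ccl21a and the B cell sum, and BF10 replicate 1 was not.

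The remaining comparisons cross the sides. In BF10 against Ctrl-IgG, limma called none of the 5 members, against 24.9% of all genes, and 0 had an unadjusted p under 0.05, against 36.3%. Of the 5 tested members 0 were free of overlap, against 38.4% of all tested genes. Clec9a and Cd209a, both under the filter and so outside that share, were higher in all BF10 libraries. For Cd209a the nearest values were 0.77 FPKM in BF10 and 0.73 FPKM in Ctrl-IgG. In the fit without a filter their adjusted p were 0.148 and 0.578 (limma). No share was computed for genes under the filter in any comparison, so such separations cannot be weighed. Irf8 was called with the FPKM sum as covariate (1.09, limma adjusted p = 0.00181, where 43.6% of all genes were called) and both Irf8 (1.30) and Ccr7 (1.09) without the 4 libraries of highest sum (40.8%). Ccr7 alone was called without BF10 replicate 1, at 1.30 (23.7%). Adjusted p over all alternatives ran from 0.00181 to 0.473 for Irf8 and from 0.00597 to 0.853 for Ccr7.

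In IL-10-Fc against Ctrl-IgG, limma called no member, against 33.7% of all genes, and 0 had an unadjusted p under 0.05, against 45.2%. Ccr7 was lower without overlap, 1 of 5 tested members against 37.3%. Its log2 difference was -0.97 with a standard error of 0.49 (limma adjusted p = 0.149). Without BF10 replicate 1, a library of neither group, Ccr7 was called (36.8% of all genes). Without IL-10-Fc replicate 3, Fscn1 (-1.38) and Zbtb46 (-0.70) were called (51.5%). With the FPKM sum as covariate Irf8 was called at 1.07 (45.2%), and without the 4 libraries of highest sum Irf8 (0.96) and Ccr7 (-0.80) were (40.6%), with IL-10-Fc replicate 3 then alone in its group and assumed to vary like the other groups.

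In BF10 against aCSF1R, limma called no member, against 25% of all genes, and 0 had an unadjusted p under 0.05, against 37.4%. Zbtb46 and Fscn1 were lower in every BF10 library, 2 of 5 tested members against 55.7% of all tested genes, and Clec9a and Cd209a, under the filter, were higher in every one. Irf8 was called with the FPKM sum as covariate (0.97, where 42.6% of all genes were called) and, with Ccr7, without the 4 libraries of highest sum (1.26 for Irf8 and 0.77 for Ccr7, 41%).

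In IL-10-Fc against aCSF1R, Ccr7 fell by 1.49 on the log2 scale (standard error 0.49, limma adjusted p = 0.0321), 1 of 5 members called, against 42.2% of all genes called and 31.2% called lower. Zbtb46 and Fscn1 had differences of -0.66 (0.27) and -1.26 (0.52) with adjusted p of 0.0679 and 0.0704, so that 3 of 5 members had an unadjusted p under 0.05 against 53.6% of all genes. Zbtb46, Ccr7 and Fscn1 were lower without overlap, 3 of 5 tested members against 56.1% of all tested genes, and Xcr1, under the filter, was higher without overlap. These shares are near those of all genes. The call of Ccr7 was lost without aCSF1R replicate 1, 2 or 3 and without IL-10-Fc replicate 1 or 2, at adjusted p of 0.0698 to 0.105, and over all alternatives it ran from 0.00190 to 0.155. Fscn1 and Zbtb46 were called too without Ctrl-IgG replicate 2 (44.7% of all genes), without IL-10-Fc replicate 3 (61.2%) and with a term for the title codes (52.2%). Irf8 was not called, at -0.30 with a standard error of 0.63, and turned to 0.94 and a call with the FPKM sum as covariate (42.6%) and to 0.91 and a call without the 4 libraries of highest sum (40.9%).

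**Figure D4:**
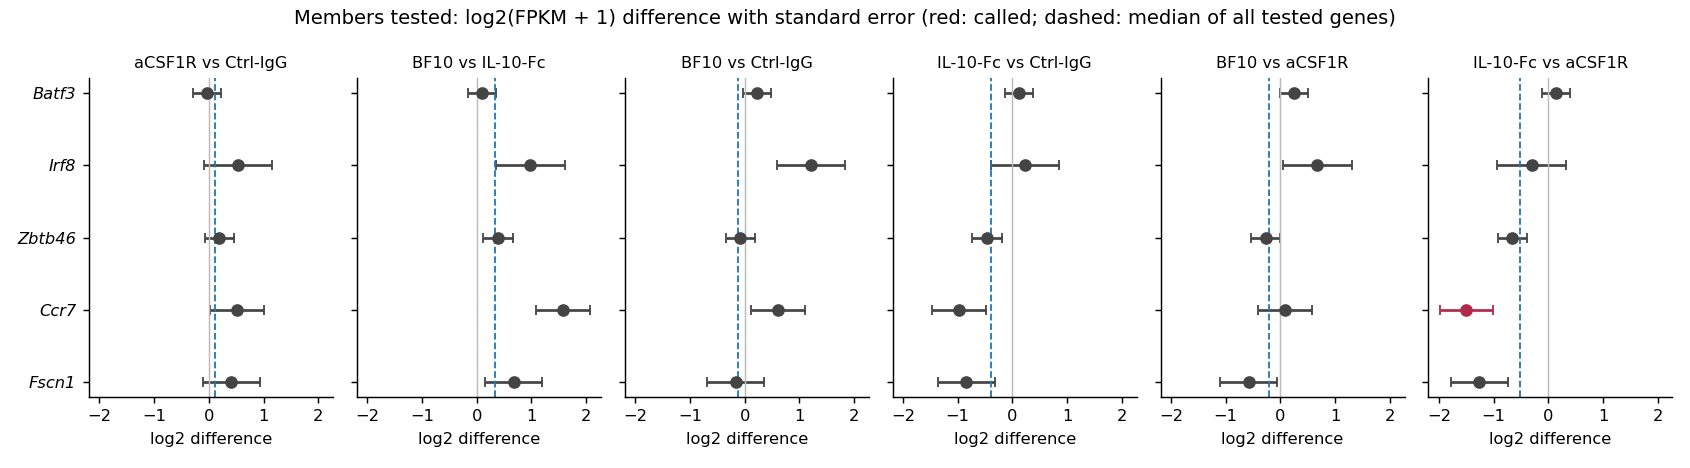
Log2(FPKM + 1) difference (x axis) with its standard error (bars) of the 5 members tested (y axis) in the 6 comparisons, the first group minus the second. The red point is the member called, Ccr7 at -1.49 in IL-10-Fc against aCSF1R, and dashed lines are the medians of all tested genes, from -0.51 to 0.34.

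The 5 members under the filter were tested only in the fit of all 36540 genes above 0. There no member of the 10 was called in any comparison, against 9.6% of all genes in BF10 against Ctrl-IgG, 12.5% in IL-10-Fc against Ctrl-IgG, 0% in aCSF1R against Ctrl-IgG, 0.00821% in BF10 against IL-10-Fc, 9.69% in BF10 against aCSF1R and 15.2% in IL-10-Fc against aCSF1R. Flt3 had the lowest adjusted p among these 5, at 0.0861 in BF10 against aCSF1R, with a log2 difference of 0.61 and a standard error of 0.21 (limma). The fit of 15813 genes also tested whether the BF10 change differed from the IL-10-Fc and aCSF1R changes added together. No member was called, and Ccr7 had the highest departure, 1.05 with a standard error of 0.70 (limma adjusted p = 1.00).

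Xcl1, the ligand of XCR1, was detected in all 12 libraries at 1.78 to 7.29 FPKM and was not called in any of the 6 comparisons. Id2 and Nfil3, factors of cDC1 development, were at 54.51 to 86.31 FPKM and 4.41 to 22.56 FPKM and were not called either. Nfil3 had its 4 lowest values, 4.41 to 7.66 FPKM, in the 4 libraries with the highest FPKM sums.

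Further marker lists beyond the members placed the 10 genes among their subsets. Of 12 cDC1 genes, 11 were tested. In BF10 against Ctrl-IgG 1 rose and 4 fell, and in IL-10-Fc against Ctrl-IgG 1 rose and 3 fell, against 24.9% and 33.7% of all genes called, with list medians of 0.04 and -0.18 beside the medians of all genes of -0.12 and -0.39. The riser was Cd24a, at 4.98 and 5.39, which many epithelial and immature blood cells also make. The largest falls were those of Xlr, at -3.97 and -5.03, an X-linked gene of lymphoid cells. Against aCSF1R, 2 rose and 2 fell in BF10, and 2 rose and 3 fell in IL-10-Fc, where 25% and 42.2% of all genes were called. The cDC1 gene Wdfy4, which is needed for cross-presentation, was named after its values were seen. It was at 4.42 and 3.79 FPKM in BF10 replicates 2 and 3 and at 0.34 to 1.55 FPKM in the other 10 libraries. Wdfy4 was not called in BF10 against Ctrl-IgG (0.74, standard error 0.45, limma adjusted p = 0.276). The summed FPKM of the 12 cDC1 genes did not single out these 2 libraries, at 237.25 and 245.99 FPKM. The other 10 libraries had sums of 234.09 to 353.68 FPKM. Abundant genes such as Cd24a (0.5 to 204.61 FPKM) and Xlr (0.37 to 157.57 FPKM) dominate this sum, so low genes hardly move it. Taken singly, Cadm1, Gcsam and Ppt1 were also highest in these 2 libraries, and the remaining listed genes were not. The part of B cells in the Wdfy4 values was not tested.

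Of 12 cDC2 genes, 10 were tested. In BF10 against Ctrl-IgG 2 rose and 0 fell, beside 24.9% of all genes called, namely Ltb, a lymphotoxin that lymphocytes also make, and the lectin Mgl2 (1.91), with a list median of 0.82 beside -0.12 for all genes. In BF10 against aCSF1R 4 rose and 0 fell, beside 25% of all genes, with Ltb (2.26) and the chemokine receptor Ccr2 (2.20) highest. In IL-10-Fc 2 rose and 1 fell against either, beside 33.7% of all genes against Ctrl-IgG and 42.2% against aCSF1R, and the faller was the transcription factor Klf4 (-1.80 against Ctrl-IgG and -2.06 against aCSF1R).

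Of 20 genes of mature migratory DCs beside Ccr7 and Fscn1, 18 were tested. In BF10 5 rose and 1 fell against Ctrl-IgG, and 7 rose and 1 fell against aCSF1R, where 24.9% and 25% of all genes were called. In IL-10-Fc 6 rose and 1 fell against Ctrl-IgG, and 7 rose and 2 fell against aCSF1R, where 33.7% and 42.2% of all genes were called. Samsn1, an adaptor of immune cells, rose most in all 4, by 2.31 to 3.14, and Marcksl1 was the next in BF10 against Ctrl-IgG (1.54). Tbc1d4 had the largest fall in all 4, from -1.78 to -1.32. These changes across the sides cannot be told apart from the difference between the sides. Of 13 plasmacytoid DC genes, 10 were tested, and 3 rose and 2 fell in BF10 against Ctrl-IgG, beside 24.9% of all genes called. The transcription factor Tcf4, also expressed by many stromal cells, rose by 1.74, and Cox6a2 and the interferon-induced Bst2 fell, with differences of -2.07 and -1.25. The defining receptor gene Siglech, named after its values were seen, was at 0.27, 0.13 and 0.53 FPKM in Ctrl-IgG and at 1.12, 2.24 and 2.20 FPKM in BF10, and also rose, by 1.11 (standard error 0.26, limma adjusted p = 0.0100). It was not called in the other 5 comparisons. In IL-10-Fc against Ctrl-IgG 1 plasmacytoid gene rose and 3 fell, in BF10 against aCSF1R 1 rose and 2 fell, and in IL-10-Fc against aCSF1R 1 rose and 4 fell, beside 33.7%, 25% and 42.2% of all genes. In the 2 comparisons within a side, 0 genes of these 4 lists were called, as were 0 and 2 of all genes.

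The members were set against Ptprc in each library as a description, since the level of this leukocyte gene differed. Ptprc was at 14.28 to 18.70 FPKM in aCSF1R and at 35.39 to 47.25 FPKM in BF10, groups that lie on different sides. On the log2(FPKM + 1) scale, Ccr7 minus Ptprc averaged -2.15 ± 0.19 for aCSF1R, -3.28 ± 1.04 for Ctrl-IgG, -4.66 ± 0.98 for IL-10-Fc and, for BF10, -3.34 ± 1.05 (SD, n = 3). Irf8 minus Ptprc was 0.22 ± 0.19, -0.93 ± 1.52, -1.10 ± 1.70 and -0.37 ± 0.85 in the same order. Relative to Ptprc, BF10 was thus 1.33 above IL-10-Fc in Ccr7 and 0.73 above it in Irf8, while Batf3, Xcr1 and Clec9a differed by -0.15, -0.17 and -0.15. For members near 0, this difference mostly mirrors Ptprc itself.

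**Figure D5:**
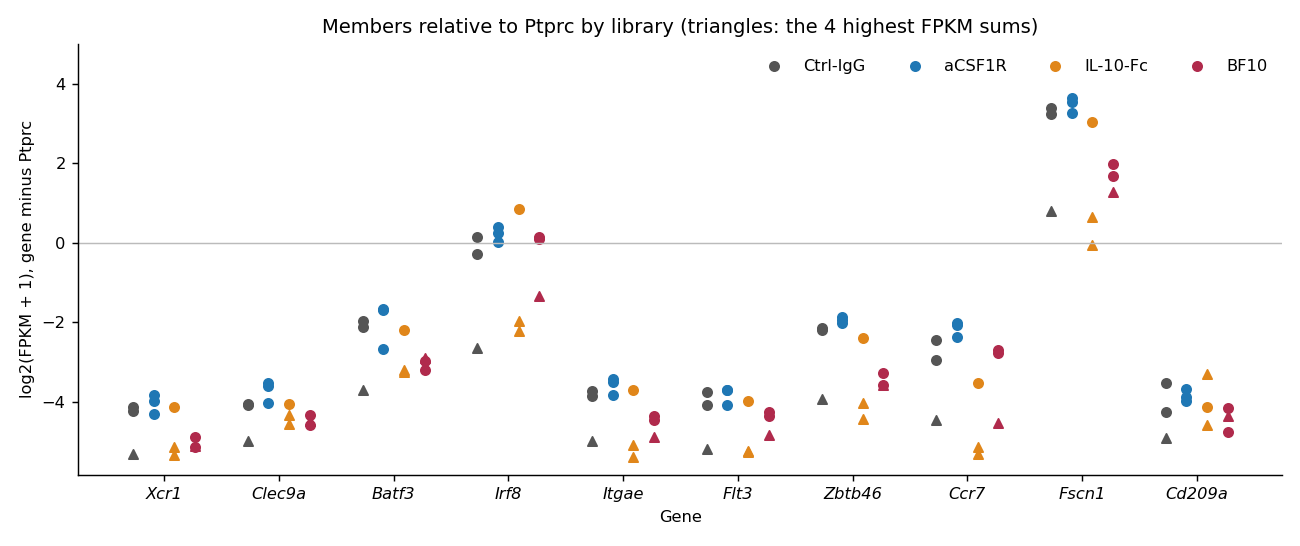
Log2(FPKM + 1) of each member minus that of Ptprc (y axis) for the 10 genes (x axis), colored by group, with triangles for the 4 libraries with the highest FPKM sums. The Ctrl-IgG, IL-10-Fc and BF10 libraries of highest sum lay lowest in Ccr7, between -5.30 and -4.45.

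Finally, the genes whose log2(FPKM + 1) deviated from the group means most like a member were listed by Pearson r over the 12 libraries, which share depth and composition, so r is a description. For Ccr7 they were Ccl22 (0.990), Cd6 (0.987), Wdfy4 (0.985), Acss1 (0.982) and Ralgps2 (0.982). Ccl22, a chemokine of mature DCs, was at 2.59 and 2.07 FPKM in BF10 replicates 2 and 3 and at 0.18 to 1.00 FPKM in the other 10. For Xcr1 they were Igkv12-46 (0.950), Mzb1 (0.947), Cd79b (0.944), Igkv14-111 (0.940) and Sit1 (0.938), of which the first 4 are genes of B cells and plasma cells. Xcr1 itself lay near 0, at 0 to 0.36 FPKM. Its widest spread within a group was in BF10, at 0.06 FPKM in replicate 1 and 0.36 and 0.35 FPKM in replicates 2 and 3. The r values of Xcr1 rest largely on that split. For Cd209a they were 1600010M07Rik (0.931), Selenop (0.927), Serpina1a (0.918), Gm15987 (0.916) and Pparg (0.913). Selenop was at 152.74 FPKM in IL-10-Fc replicate 1 and at 59.04 and 48.53 FPKM in the other IL-10-Fc libraries.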

How the data were processed

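RNA of 12 tumor libraries was measured by stranded mRNA sequencing. Per the labels' processing notes, STAR 2.7.5a, RSEM 1.3.3 and DESeq2 1.30.0 were used with mm10 (GRCm38), with no roles given. The authors deposited FPKM values for 55401 genes per library, to 2 decimals. The authors also deposited 4 tables of their own DESeq2 comparisons (mean count, log2 fold change, error, Wald score and p-values per gene), which were not used. No 2 libraries were identical (0 pairs). The commonest step between low values held 1.59% to 2.69% of genes, so whole reads were not recovered, depth behind single values is unknown, and no count model was fitted.

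Groups came from the treatment labels, and replicate numbers follow sample order and only name libraries. The 15813 genes that reached 1 FPKM in 3 or more libraries were fitted as log2(FPKM + 1), with a pseudocount of 1, in limma 3.58.1 (R 4.3.3), all 12 libraries in one model with an intensity trend, and Benjamini-Hochberg adjustment over all 15813. Genes were called at adjusted p under 0.05 and a fold of at least 1.5. The model was tested on simulated data. Alternatives were a pseudocount of 0.1, no filter or a mean of at least 5 FPKM, rescaling to a sum of 1000000, median-of-ratios and quantile scaling, the FPKM sum or the title code (1 to 4 against 5 to 7) as a term, fits of 2 groups alone, fits without the 4 highest FPKM sums, and leaving out each library.

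Named genes were the members, their ligands and partners, the other Cd209 genes, for each marker list up to 2 called genes at either end of a comparison, and the 5 genes most like Xcr1, Ccr7 and Cd209a. Ptprc, Wdfy4, Siglech, H2-Ea, Krt8, Xist and Eif2s3y come from the lists and were named for their values. The members and lists were chosen with earlier results of these data known. Positions came from GENCODE M21 (GRCm38) and upstream sequences from RefSeq (GRCm38.p6).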

Additional observations from a re-analysis of the deposited data

How the results depend on the processing

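No paired analysis was possible because replicate numbers only follow sample order, and any pair of groups shares at most 1 of the first numbers in the sample titles. Of the alternative values, 610 were unchanged, 20 gained and 7 lost a call, and 34 changed sign. For the 5 tested members, unchanged means the same direction and the same side of the threshold. The 610 also include the 5 members under the filter, which had only 1 alternative per comparison, the fit without a filter. That fit repeats the same difference, so these values could not move and say nothing about robustness. Main counts of members called were 0 in 5 comparisons and 1 (Ccr7) in IL-10-Fc against aCSF1R. With the FPKM sum as covariate the count was 1 in BF10 against Ctrl-IgG, in IL-10-Fc against Ctrl-IgG and in BF10 against aCSF1R. Without the 4 libraries of highest sum it was 2 in each of these and in IL-10-Fc against aCSF1R. In the latter it was 0 without a filter and with a mean of at least 5 FPKM, where Ccr7 was not tested, and 3 with the title code term. Leaving out each library gave 0 to 1 in BF10 against Ctrl-IgG and against IL-10-Fc, 0 to 2 in IL-10-Fc against Ctrl-IgG and 0 to 3 in IL-10-Fc against aCSF1R. Sign changes in log2 differences, given with leave-one-out ranges, were as follows, and the cause was not tested. In BF10 against Ctrl-IgG, Zbtb46 ran from -0.28 to 0.064 and Fscn1 from -0.63 to 0.11 on leaving out each library. In IL-10-Fc against Ctrl-IgG, Batf3 was -0.048 rescaled to a common sum, -0.13 without the 4 libraries and -0.054 to 0.25 on leaving out each library, and Irf8 ran from -0.37 to 0.69. In aCSF1R against Ctrl-IgG, Batf3 was 0.054 rescaled to a common sum and ran from -0.20 to 0.21, Zbtb46 was -0.011 without the 4 libraries and ran from -0.011 to 0.31, and Fscn1 was -0.049 without them and ran from -0.049 to 0.67. In BF10 against IL-10-Fc, Batf3 was -0.26 with median-of-ratios and -0.36 with quantile scaling, and Fscn1 was -0.052 with the covariate and -0.13 without the 4 libraries. In BF10 against aCSF1R, Ccr7 was -0.091 with a pseudocount of 0.1 and -0.19 with the title code term, and ran from -0.35 to 0.77. In IL-10-Fc against aCSF1R, Batf3 was -0.10 rescaled to a common sum and ran from -0.089 to 0.31, and Irf8 was 0.29 with median-of-ratios, 0.33 with quantile scaling, 0.94 with the covariate and 0.91 without the 4 libraries, and ran from -0.91 to 0.15. Depth behind FPKM values is unknown, so counting error cannot be given, including for the 5 low members under the filter.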

Other observations

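Other leukocyte lists moved beside the dendritic cell genes, and their part in the dendritic cell values was not tested. The 10 macrophage genes, which include the antibody target Csf1r, summed to 374.94 to 507.05 FPKM in aCSF1R, 554.38 to 1385.54 FPKM in Ctrl-IgG, 1379.51 to 1690.11 FPKM in IL-10-Fc and 1456.45 to 2250.36 FPKM in BF10. By limma, 8 of them rose and 0 fell in BF10 against aCSF1R, and 5 rose and 0 fell in IL-10-Fc against aCSF1R. In these comparisons 25% and 42.2% of all genes were called. In aCSF1R against Ctrl-IgG 0 were called, as were 0% of all genes, the list median was -0.92 and the sums did not overlap. Taken singly, Csf1r overlapped, at 6.91 to 8.14 FPKM in aCSF1R and 7.33 to 22.1 FPKM in Ctrl-IgG. So did Cd68, Mrc1, Mertk and Apoe, and the rest of the list did not. The 5 neutrophil genes summed to 994.43 to 4494.23 FPKM in IL-10-Fc and 492.96 to 1645.38 FPKM in BF10, against 29.84 to 336.01 FPKM in the other 6 libraries. The 4 genes of NK cells, a source of the XCR1 ligand, summed to 1.81 to 10.21 FPKM in IL-10-Fc and BF10 and to 9.92 to 24.34 FPKM in Ctrl-IgG and aCSF1R. Among them Klra8, at 0 FPKM in IL-10-Fc and 0 to 0.65 FPKM in BF10, and Eomes did not overlap between the sides. Ncr1, at 1.02 to 7.86 against 1.47 to 7.74 FPKM, and Klrb1c did. None of these list differences across the sides can be told apart from the difference between the sides. Cd207, which defines Langerhans cells, the dendritic cells of the epithelium, was at 0 to 0.34 FPKM over all 12 libraries.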
